A study of Mus musculus with 19 samples.

Results

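The 10 genes described here are the AP-1 and EGR immediate-early genes: *Fos*, *Fosb*, *Fosl1* and *Fosl2* of the FOS family, *Jun*, *Junb* and *Jund* of the JUN family, and *Egr1*, *Egr2* and *Egr3* of the EGR family. They are the rows of the deposited table whose Ensembl identifiers map to these symbols, and all 10 were found among its 46078 genes. The table holds RNA-seq of 19 mouse samples of mammary tissue. Of these, 16 came from mice with the neu transgene, which the MMTV promoter drives in mammary epithelium: 4 tumors (TN) and 4 mammary glands (MGN) of *N* mice, and 4 tumors (TNP) and 4 glands (MGNP) of *NP* mice. The other 3 were glands from wild-type mice (MGWT), which carried none of these alleles. By the labels, the 4 TN tumors and MGN replicate 1 were MMTV-neu;Fsp-Cre, where Fsp-Cre expresses Cre in fibroblasts. MGN replicates 2, 3 and 4 were MMTV-neu;p53wm-R172H/+, which carries the conditional p53 allele without Cre, so that the MGN group mixes 2 genotypes. All MGNP and TNP samples were MMTV-neu;p53wm-R172H/+;Fsp-Cre, in which fibroblasts switch to the p53 mutant R172H. By the study's methods, MGN and MGNP glands were taken from tumor-bearing mice and had no malignant lesion, and MGWT mice were age-matched. Ages are not given in the labels, and the background of the *N* and *NP* mice was a mix of FVB, C57 and BALB/c. The library names of TNP replicates 1 and 2 share a number, and the labels do not say whether both came from the same mouse. The correlation of their log2 values was 0.9751, the highest of any pair of libraries outside MGWT. The p-values of the comparisons with TNP treat them as separate samples, which would be too many if they shared a mouse.

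AP-1 is a dimer of basic leucine zipper proteins, in which a FOS protein pairs with a JUN protein or 2 JUN proteins pair with each other. The EGR proteins are zinc finger factors that bind GC-rich sites. Most of these genes are silent or low in resting cells and are transcribed within minutes of a growth factor, serum, stress or tissue dissociation, largely through ERK and JNK signaling to SRF, its ternary complex partners and CREB, after which the transcripts decay quickly. ERBB2, the protein encoded by the neu transgene, signals through the same RAS and ERK pathway, and AP-1 is known in the mammary gland as a regulator of proliferation, involution and invasion.

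The upstream sequences of 5 of the genes are shown because the results turn on FOS and JUN genes, and *Egr2* because the window picked for it held a CArG box. RefSeq start sites of build GRCm38.p6 were listed for 7 of the 10 members, with 11 windows in all, 5 of them for *Egr2*. *Fosl1*, *Egr1* and *Egr3* were not among them. Each line gives the 250 bases before the start, 5′ to 3′ on the strand of the gene, with capitals for a match to TGANTCA (an AP-1 site), TGACNTCA (an octamer bound by JUN and ATF dimers), TGACGT (the cyclic AMP response element core), the CArG box (the SRF site), TATAAA or GCGNGGGCG (an EGR site), searched on both strands. TGACGT lies within TGACNTCA wherever N is G. The windows are chr12:85473640-85473889 (plus strand) for *Fos*, chr7:19310046-19310295 (minus strand) for *Fosb*, chr4:95052223-95052472 (minus strand) for *Jun*, chr8:84978749-84978998 (minus strand) for *Junb* and chr10:67537619-67537868 (plus strand) for *Egr2*.
Fos: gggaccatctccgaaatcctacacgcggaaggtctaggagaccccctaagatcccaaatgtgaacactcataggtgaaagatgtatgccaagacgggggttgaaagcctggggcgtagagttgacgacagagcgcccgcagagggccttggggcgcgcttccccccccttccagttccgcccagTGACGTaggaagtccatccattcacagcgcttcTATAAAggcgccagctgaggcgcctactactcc
Fosb: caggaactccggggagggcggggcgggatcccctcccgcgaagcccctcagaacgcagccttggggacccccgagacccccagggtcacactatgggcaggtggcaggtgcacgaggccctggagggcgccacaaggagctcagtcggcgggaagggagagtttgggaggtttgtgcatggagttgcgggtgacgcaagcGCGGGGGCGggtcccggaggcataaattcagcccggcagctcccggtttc
Jun: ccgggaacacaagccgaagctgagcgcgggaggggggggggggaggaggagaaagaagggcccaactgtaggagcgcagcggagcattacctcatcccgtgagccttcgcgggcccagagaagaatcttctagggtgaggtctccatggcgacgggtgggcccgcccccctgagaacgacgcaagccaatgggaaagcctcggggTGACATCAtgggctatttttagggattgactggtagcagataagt
Junb: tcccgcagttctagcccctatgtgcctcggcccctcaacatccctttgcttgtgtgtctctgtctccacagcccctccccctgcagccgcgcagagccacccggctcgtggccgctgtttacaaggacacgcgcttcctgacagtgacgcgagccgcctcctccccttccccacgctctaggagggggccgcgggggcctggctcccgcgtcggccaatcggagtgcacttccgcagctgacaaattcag
Egr2: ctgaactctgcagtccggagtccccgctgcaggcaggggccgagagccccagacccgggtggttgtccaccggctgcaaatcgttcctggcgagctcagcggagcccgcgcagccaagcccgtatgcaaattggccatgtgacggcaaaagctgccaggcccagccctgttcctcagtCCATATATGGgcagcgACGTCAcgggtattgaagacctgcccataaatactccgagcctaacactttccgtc
The *Fos* window held TGACGT 66 to 61 bases before the start and TATAAA 33 to 28 bases before it. In *Jun* the octamer TGACATCA lay 45 to 38 bases before the start. In the *Egr2* window shown, the CArG box CCATATATGG lay 72 to 63 bases before the start, followed by TGACGT on the minus strand at 56 to 51 bases. That window lies inside the annotated gene used for the counts below. The *Egr2* window at the annotated gene start, chr10:67535249-67535498, held no match, and the other *Egr2* windows each held a CArG box. *Fosb* held GCGGGGGCG 50 to 42 bases before its start, and *Fosl2*, in chr5:32136222-32136471 (plus strand), held the same letters 79 to 71 bases before its own. The *Junb* and *Jund* windows held no match to any of these motifs. The *Jund* window ends at chr8:70697738 and belongs to a start that lies upstream of the annotated gene used for the counts below. Among 32851 mouse windows of the same length, the AP-1 site occurred in 6.75%, the octamer in 7.49%, TGACGT in 6.47%, the CArG box in 1.47%, TATAAA in 12.4% and the EGR site in 4.7%.

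The values are DESeq2-normalized counts, that is reads on a gene divided by a size factor of the library. The reads recovered from them numbered 20899152 to 27262440 in the 16 libraries of tumors, MGN and MGNP, and 54677315 to 62645459 in the 3 MGWT libraries, which were thus sequenced deeper. The MGWT glands also differed from the other glands in tissue markers. The summed normalized counts of 9 white adipocyte genes were 2259 to 3392 in MGWT, 338791 to 476296 in MGN and 168057 to 419070 in MGNP. For 8 luminal epithelial genes they were 77434 to 92548, 13422 to 27252 and 8851 to 26714. In TN and TNP the luminal sums were 96496 to 180744 and 101252 to 138153. The sum of 12 skeletal muscle genes was 144 to 165 in MGWT, 382 to 17219 in MGN and 12409 to 2881628 in MGNP. Mitochondrial genes took 0.364% to 0.405% of the reads in MGWT and 0.821% to 14.606% in the other libraries. The part of tissue makeup in the results below was not tested. The MGWT libraries are also named in a form of their own, while the other 16 carry running numbers. In the comparisons with MGWT, genotype, depth, tissue makeup and any difference in handling or preparation coincide, so they cannot be told apart. In bulk tissue, fewer cells of a type and less RNA per cell cannot be told apart. The paper calls the samples of a group biological replicates. Nothing in the labels says that each sample is a separate animal, so the p-values measure the spread between these samples. Genes were tested with limma on log2(normalized count + 1). A member was called when its p-value, adjusted by the Benjamini-Hochberg method over all genes tested, was under 0.05 and its fold change at least 2.

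All 10 members were higher in every MGWT gland than in any of the other 16 libraries. Together they took 1.202% to 1.5752% of the reads in MGWT and 0.0142% to 0.0402% in the other libraries. All 10 were called lower in MGN than in MGWT, where 17.9% of the 19017 genes tested were called lower and the groups of 29.8% did not overlap with the lower values in MGN. All 10 were also called lower in MGNP (16.2% of 19065 genes called lower, 27.9% lower without overlap), in TN (25.0% and 32.4% of 18236) and in TNP (28.0% and 37.2% of 18233). The median log2 fold change of the members was -6.14 in MGN, -6.10 in MGNP, -5.86 in TN and -5.67 in TNP, and that of all genes tested was 0.02, 0.02, -0.09 and -0.08. These 4 comparisons share the same 3 MGWT glands. *Fosl1* had at most 9.09 normalized counts outside MGWT, so it passed the low-count filter, at 10 normalized counts, only through those 3 glands. Its direction in the 4 comparisons was thus fixed by the filter, although it is counted among the 10 and in the medians. The plot of member values shows the separation for each gene.

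**Figure D1:**
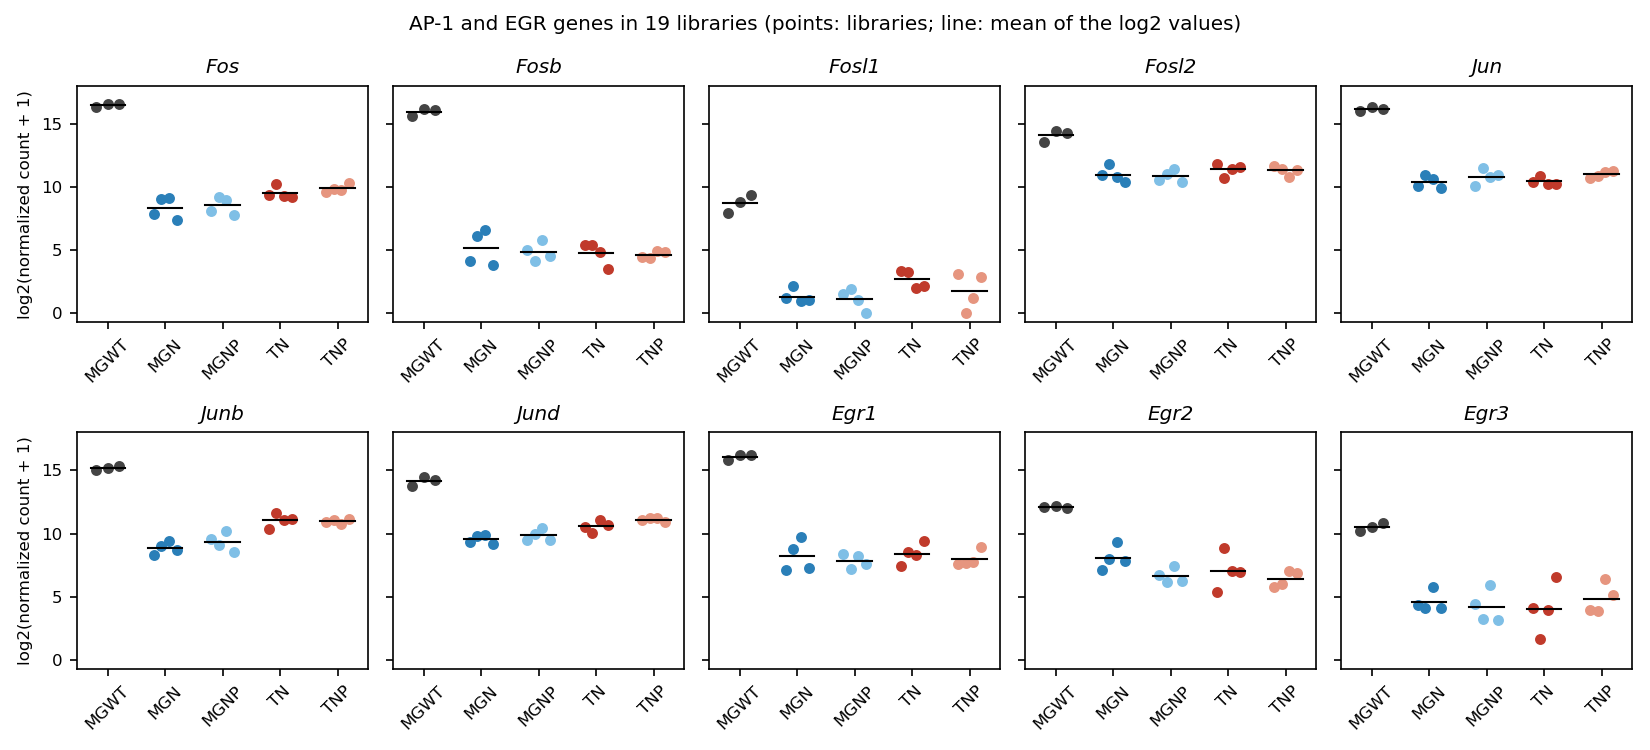
Expression of the 10 members as log2(normalized count + 1), with a panel for each gene, a point for each of the 19 libraries and a line at the group mean of the log2 values. In every panel the 3 MGWT glands lie above the other 16 libraries, and the gap is widest for *Fosb*, whose lowest MGWT value was 520-fold above the highest other value, and narrowest for *Fosl2*, at 3.35-fold.

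Within the FOS family, *Fosb* differed most between MGWT and the other libraries. *Fosb* (ENSMUSG00000003545, chr7:19302696-19310051, minus strand) had normalized counts of 50326, 72723 and 70243 in MGWT. It had 16.6, 69.0, 96.7 and 13.4 in MGN, and 30.5, 17.1, 56.3 and 21.95 in MGNP. In the tumors it had 42.0, 41.1, 27.3 and 10.5 in TN, and 21.3, 19.5, 29.9 and 27.5 in TNP. The 16 libraries overlapped across their 4 groups, and none came near the MGWT glands. The log2 fold change against MGWT was -10.78 (standard error 0.66, adjusted p = 8.42e-06) in MGN and -11.08 in MGNP. It was -11.16 (standard error 0.45, adjusted p = 5.47e-06) in TN and -11.30 (standard error 0.20, adjusted p = 4.61e-08) in TNP. *Fosb* had the lowest log2 fold change of all genes tested in MGN, MGNP and TNP, and the rank 2 from the lowest in TN.

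*Fos* (ENSMUSG00000021250, chr12:85473890-85477273, plus strand), the founding member, had 81338, 99730 and 100009 normalized counts in MGWT. It had 233, 531, 560 and 170 in MGN and 280, 605, 512 and 222 in MGNP. The TN tumors had 652, 1200, 624 and 587 and the TNP tumors 783, 920, 881 and 1286. The tumors lay above the glands of *N* and *NP* mice with the exception of the top MGNP gland, which exceeded the lowest TN tumor, and all lay far below MGWT. Its log2 fold change against MGWT was -8.14 in MGN, -7.96 in MGNP, -6.99 (standard error 0.26) in TN and -6.62 (standard error 0.18) in TNP, with adjusted p-values from 1.99e-07 to 2.3e-05.

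*Fosl2* and *Fosl1* encode FRA2 and FRA1, FOS proteins without the strong transactivation domain of FOS. *Fosl2* (ENSMUSG00000029135, chr5:32135801-32157842, plus strand) had 12412, 22679 and 20356 normalized counts in MGWT. Outside MGWT it ranged from 1313 to 3590 in MGN, 1382 to 2735 in MGNP, 1680 to 3705 in TN and 1813 to 3261 in TNP. These 4 ranges overlapped, and the log2 fold changes against MGWT, -3.14, -3.26, -2.72 and -2.82, were the smallest of any member in size. *Fosl1* (ENSMUSG00000024912, chr19:5447547-5455946, plus strand) was the least abundant member, with 247, 438 and 663 normalized counts in MGWT. In MGN and MGNP no library had more than 3 reads of it, so that it was at least 118-fold lower in MGN and at least 105-fold lower in MGNP, computed from the MGWT mean against a floor of 3 reads per library. In TN it had 9.09, 8.43, 3.03 and 3.50 normalized counts and in TNP 7.85, 0.0, 1.30 and 6.24, and its log2 fold changes against MGWT were -6.01 (standard error 0.50) and -6.90 (standard error 0.76). The tumor values overlapped the range of 0.939 to 3.45 in MGN. With *Fosl1* at its bound, the median of the 4 FOS genes was -7.51 in MGN and -7.34 in MGNP, against -7.76 in both as fitted, and the median of all members did not move at 2 decimals. *Fosl1* overlaps *Ccdc85b* on the other strand, and whether reads were counted by strand is not stated.

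The JUN proteins form dimers with each other and with FOS proteins. *Jun* (ENSMUSG00000052684, chr4:95049034-95052222, minus strand) had 67547, 80892 and 72959 normalized counts in MGWT. It had 1060, 1926, 1606 and 954 in MGN and 1095, 2919, 1774 and 1929 in MGNP. The tumors had 1368, 1911, 1233 and 1215 in TN, and in TNP 1685, 1859, 2294 and 2466. No order among these 4 groups was free of overlap, and the log2 fold changes against MGWT were -5.79 in MGN, -5.34 in MGNP, -5.71 in TN and -5.16 in TNP, with standard errors of 0.16 to 0.30. *Jun* overlaps the antisense gene *Junos*, which had 43.4 to 931 normalized counts over all libraries.

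*Junb* (ENSMUSG00000052837, chr8:84974484-84978718, minus strand), a JUN protein with weaker transactivation that can restrain *Jun*, was the member that differed most between tumors and glands. It had 32694, 38006 and 42325 normalized counts in MGWT. It had 322, 517, 666 and 414 in MGN and 775, 535, 1143 and 371 in MGNP. In TN it had 1343, 3085, 2130 and 2327 and in TNP 1959, 2137, 1721 and 2314. Every tumor was above every MGN and MGNP gland and below every MGWT gland. The log2 fold change against MGWT was -6.34 (standard error 0.23) in MGN, -5.85 (standard error 0.36) in MGNP, -4.14 (standard error 0.27) in TN and -4.21 (standard error 0.14) in TNP, with adjusted p-values from 3.53e-07 to 7.84e-05. It overlaps the 3′ end of *Prdx2* on the other strand, which had 2124 to 8616 normalized counts.

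*Jund* (ENSMUSG00000071076, chr8:70698949-70700616, plus strand), the JUN gene best known for steady expression in resting cells, had 14230, 22721 and 19300 normalized counts in MGWT. It had 636, 877, 941 and 572 in MGN and 731, 1018, 1409 and 728 in MGNP. In TN it had 1480, 1060, 2127 and 1606 and in TNP 2145, 2359, 2465 and 1884. The tumors were above the glands without overlap within *N* and within *NP*. Its log2 fold changes against MGWT were -4.64 in MGN, -4.30 in MGNP, -3.60 in TN and -3.06 in TNP, with standard errors of 0.17 to 0.28. An antisense gene that overlaps it had at most 37.6 normalized counts.

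In MGWT, *Egr1* was the most abundant gene of the EGR family per kilobase of exon. *Egr1* (ENSMUSG00000038418, chr18:34859823-34864984, plus strand) had 56853, 77209 and 76864 normalized counts in MGWT. It had 139, 445, 841 and 154 in MGN and 335, 146, 300 and 190 in MGNP. In TN it had 169, 361, 308 and 696 and in TNP 193, 198, 208 and 477. The 4 groups outside MGWT overlapped throughout. The log2 fold change against MGWT was -7.86 (standard error 0.59, adjusted p = 2.28e-05) in MGN, -8.24 in MGNP, -7.68 (standard error 0.42, adjusted p = 1.96e-05) in TN and -8.13 (standard error 0.31, adjusted p = 7.23e-07) in TNP.

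*Egr2* (ENSMUSG00000037868, chr10:67535475-67542188, plus strand) is known from myelination and lymphocyte anergy. It had 4301, 4519 and 4089 normalized counts in MGWT, the tightest group of any member. It had 134, 257, 634 and 225 in MGN and 106, 69.9, 176 and 74.9 in MGNP. The values in TN were 39.8, 458, 127 and 121, and in TNP 53.8, 63.4, 129 and 114. The groups outside MGWT overlapped, and TN spanned 11.5-fold. The log2 fold changes against MGWT were -4.02 (standard error 0.44) in MGN, -5.42 (0.32) in MGNP, -5.04 (0.69) in TN and -5.66 (0.30) in TNP.

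*Egr3* (ENSMUSG00000033730, chr14:70077203-70082614, plus strand), a target of calcium and receptor signaling in lymphocytes and neurons, had 1183, 1475 and 1824 normalized counts in MGWT. It had 19.1, 16.1, 54.5 and 16.5 in MGN and 20.03, 8.56, 60.7 and 7.75 in MGNP. In TN it had 15.9, 2.11, 14.1 and 95.7 and in TNP 14.6, 13.4, 83.1 and 34.96. It spanned 45.4-fold between the lowest and the highest TN tumor, the widest span of any member in TN. The lowest value there, 2.11 in TN replicate 2, lay under the floor of 3 reads, so that span rests on few reads in 1 library. In MGN it spanned 3.39-fold, where *Fosb*, *Egr1*, *Egr2* and *Fosl1* spanned more. The log2 fold changes against MGWT were -5.94 in MGN, -6.34 in MGNP, -6.47 in TN and -5.68 in TNP, with standard errors of 0.42 to 0.99 and adjusted p-values from 1.73e-05 to 0.00112.

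**Figure D2:**
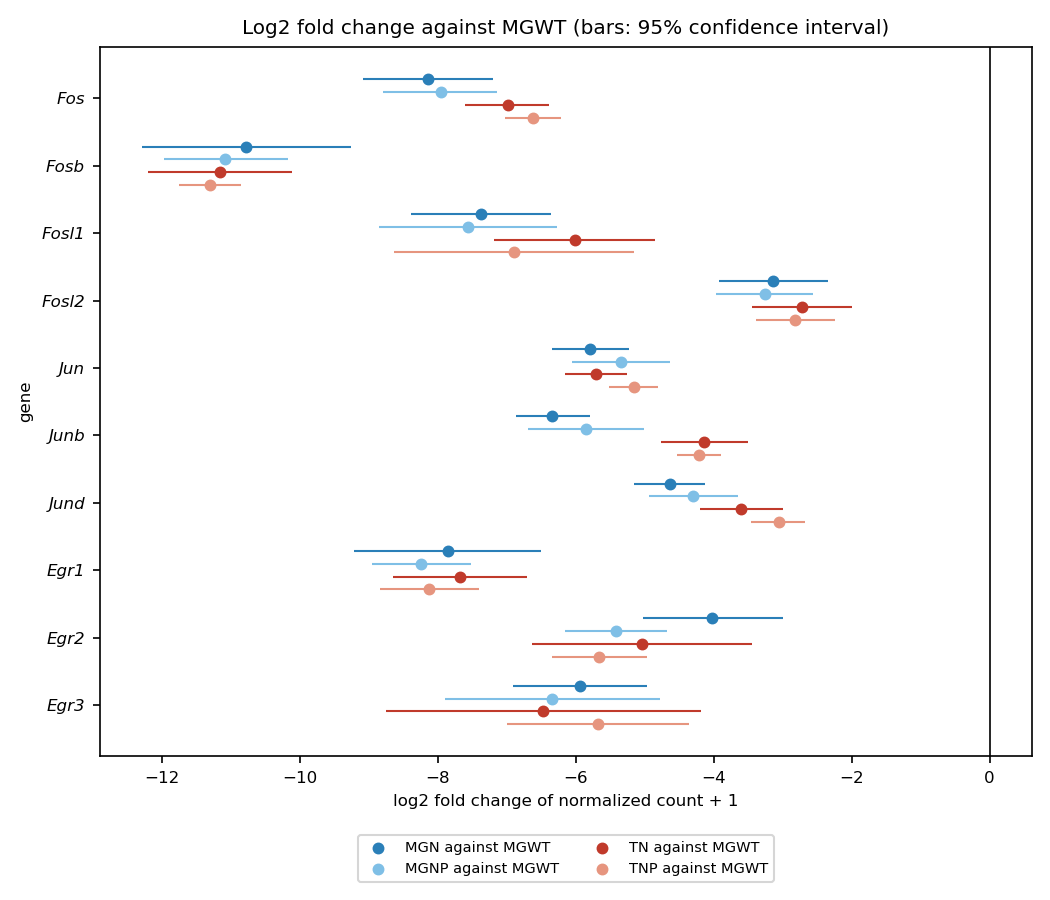
Log2 fold changes of the 10 members against the 3 MGWT glands, in MGN, MGNP, TN and TNP, with 95% confidence intervals from limma. All 40 values were called and lie below 0, from -11.30 for *Fosb* in TNP to -2.72 for *Fosl2* in TN. The direction of *Fosl1* was fixed in advance, since it passed the filter on low counts only through MGWT.

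The difference between MGWT and the other libraries varied in size between family members, so that the makeup of each family differed as well. Levels were compared between genes as normalized counts per kilobase of annotated exon. In MGWT, *Fos* made up 74.9% to 78.5% of the FOS family and *Fosl2* 2.91% to 4.14%. In MGN, *Fosl2* made up 42.1% to 67.0% and *Fos* 31.9% to 54.2%, and in MGNP 45.3% to 59.3% and 39.2% to 53.8%. *Fos* ranged from 41.3% to 73.5% in TN and from 49.2% to 66.2% in TNP. *Fosb* was 18.3% to 20.6% of the family in MGWT and at most 3.53% in any other library. These shares are a description and carry no test.

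In the JUN family, *Jun* was the leading gene per kilobase in MGWT, with 43.3% to 48.2%, and *Junb* made up 29.8% to 34.8% and *Jund* 19.4% to 24.5%. In MGN the share of *Junb* was 16.4% to 21.9% and that of *Jund* 38.8% to 44.7%. In the tumors *Jun* made up 14.9% to 23.3% in TN and 19.8% to 26.6% in TNP, below its share in each MGWT, MGN and MGNP gland. *Jund* made up 24.7% to 49.3% in TN and 38.8% to 50.2% in TNP. *Egr1* was 89.2% to 91.4% of the EGR family in MGWT and 32.9% to 73.0% in the other libraries. *Egr2* was 6.41% to 8.91% of the family in MGWT. In MGN it made up 42.4% to 63.5% (median 50.5%, against 44.99% for *Egr1*), and it exceeded *Egr1* in MGN replicates 1 and 4 and, at 62.5%, in TN replicate 2. Its share was 28.2% to 39.0% in MGNP and 22.6% to 36.7% in TNP. The log2 ratio of the summed FOS to the summed JUN family per kilobase was 0.004 to 0.089 in MGWT and -2.38 to -1.15 in the other 16 libraries, so that JUN transcripts exceeded FOS transcripts in each of those.

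**Figure D3:**
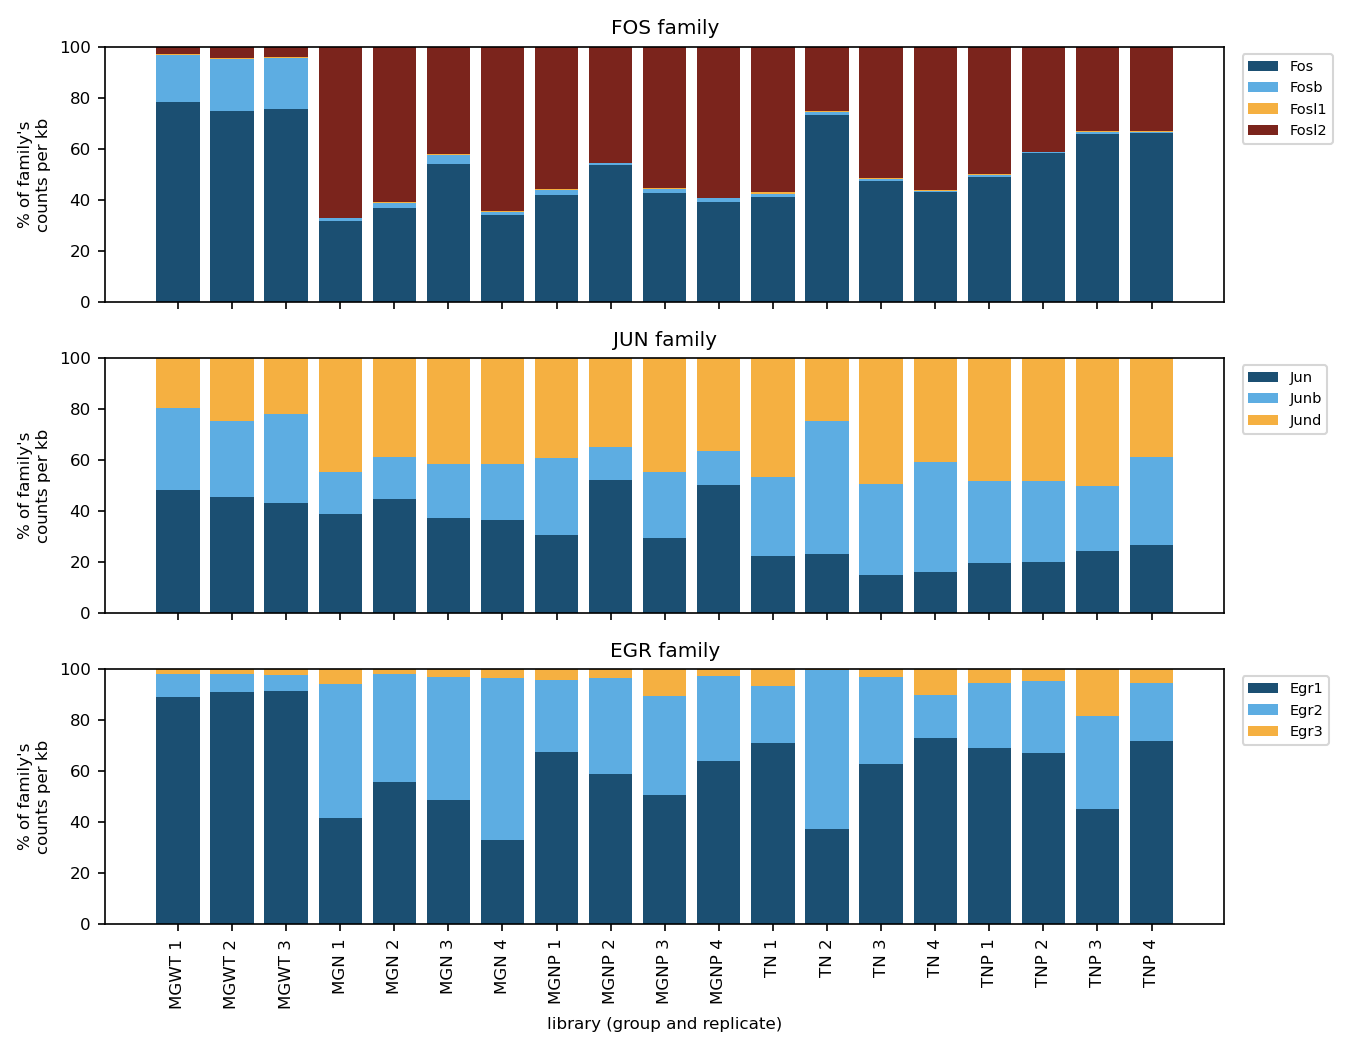
Share of each member in its family, in percent of the family's normalized counts per kilobase of exon, with a bar for each of the 19 libraries and panels for the FOS, JUN and EGR families. *Fos* and *Fosb* fill most of the FOS bars in MGWT and *Fosl2* takes 25.0% to 67.0% elsewhere, while *Jun* takes 14.9% to 26.6% of the JUN bars in tumors.

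Tumors were compared with the glands of *N* mice and, separately, of *NP* mice. The TNP and MGNP samples had the same genotype, whereas 3 of the 4 MGN glands carried the conditional p53 allele without Cre and the TN tumors carried Cre without that allele. Of the 9 members that passed the filter on low counts, 3 were called higher in TN than in MGN and 0 lower, where 12.8% of the 17950 genes tested were called higher and 22.3% lower, and the groups of 22.7% did not overlap with the higher values in TN. The 3 were *Junb*, *Fos* and *Jund*, and they were also the 3 called higher in TNP than in MGNP, where 14.7% of 17880 genes were called higher and 24.0% lower, and 25.2% were higher without overlap. None of the 3 had overlapping groups in either comparison. *Fosl1* did not pass the filter. In TN against MGN, *Junb* was 4.59-fold higher (log2 fold change 2.20, standard error 0.30, adjusted p = 0.000544) and *Jund* 2.05-fold higher (1.04, standard error 0.25, adjusted p = 0.00772). *Fos* was 2.22-fold higher (1.15, standard error 0.42, adjusted p = 0.0483), and this call lay at the edge of the threshold. Its adjusted p was 0.067 with edgeR and 0.0543 without the filter on low counts, and it was not called without MGN replicate 1, MGN replicate 4 or any of the 4 TN replicates, with adjusted p up to 0.118 (lowest log2 fold change 0.83). *Jund* was not called without MGN replicate 1, MGN replicate 4 or TN replicate 3, where its fold change lay under 2 (log2 0.97, 0.92 and 0.88) with adjusted p of 0.024, 0.0247 and 0.0169. *Junb* stayed called in each of these.

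In TNP against MGNP, *Junb* was 3.12-fold higher (log2 fold change 1.64, standard error 0.31, adjusted p = 0.00249), *Fos* 2.55-fold (1.35, standard error 0.33, adjusted p = 0.00833) and *Jund* 2.35-fold (1.24, standard error 0.22, adjusted p = 0.00183). All 3 stayed called with each library left out in turn and without the 2 MGNP glands with most muscle transcripts. With the muscle score as a covariate 0 of the 9 were called, and the log2 fold changes were 1.30 for *Fos* and 0.78 for both *Junb* and *Jund* (adjusted p = 0.131, 0.188 and 0.12). The muscle sum was 12409 to 2881628 in MGNP and 374 to 7162 in TNP, so the covariate and the group cannot be told apart. For the other members the intervals spanned 0 in both comparisons. *Jun* had a log2 fold change of 0.08 (95% interval -0.50 to 0.66) in TN against MGN and 0.17 (-0.46 to 0.81) in TNP against MGNP. *Egr1* had 0.18 (-1.27 to 1.62) and 0.11 (-0.75 to 0.97), and *Fosb* -0.39 (-2.03 to 1.26) and -0.23 (-1.13 to 0.68). The median of the 9 members was 0.18 and 0.45, beside -0.05 and -0.07 for all genes tested. Luminal markers were higher and adipocyte markers lower in the tumors, with adipocyte sums of 647 to 7898 in TN and 1134 to 2818 in TNP. Sums of endothelial, basal epithelial and T cell markers were also lower in the tumors, without overlap in either comparison. The endothelial sums were 17274 to 30396 in MGN and 3232 to 5530 in TN, and 14465 to 28870 in MGNP and 3018 to 4721 in TNP. The part of these cell types in the differences was not tested.

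**Figure D4:**
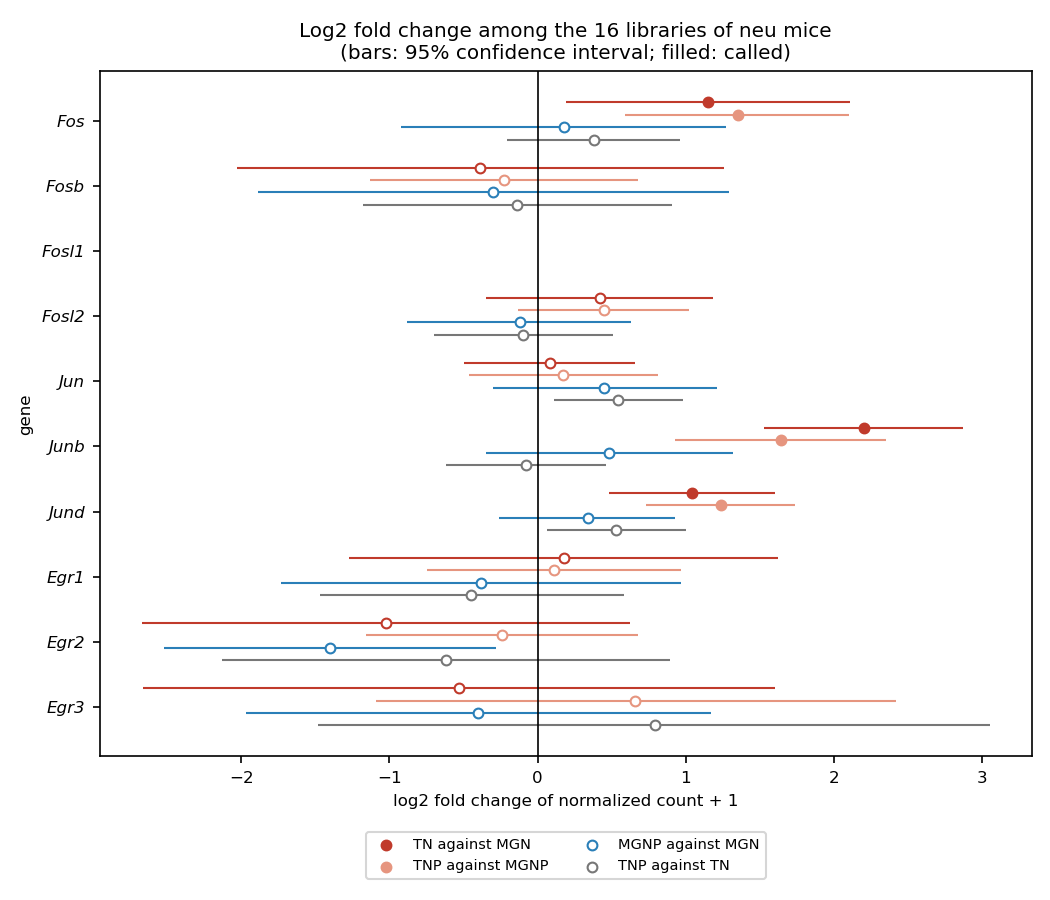
Log2 fold changes of 9 members with 95% confidence intervals from limma for TN against MGN, TNP against MGNP, MGNP against MGN and TNP against TN. Filled points were called: only *Fos*, *Junb* and *Jund*, in the tumors against the glands, and *Fosl1* has no points because it did not pass the filter on low counts.

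Whether mutant p53 in fibroblasts went with another level of these genes was asked within glands and within tumors. MGNP differed from MGN replicates 2, 3 and 4 by Cre and from replicate 1 by the conditional p53 allele. TNP differed from all TN tumors by that allele, so the 2 comparisons do not contrast the same genotypes. The muscle sum was 382 to 17219 in MGN and 12409 to 2881628 in MGNP. The summed counts of 8 fibroblast genes were 132272 to 469768 in MGN and 63457 to 146065 in MGNP, ranges that overlapped. The part of fibroblast content in this comparison was not tested. In MGNP against MGN, 0 of 9 members were called by limma, and 0 of all 18563 genes (0.0%), of which 1950 had an unadjusted p under 0.05. Of the members, only *Egr2* had an unadjusted p under 0.05 (limma adjusted p = 0.371), with a log2 fold change of -1.40 (95% interval -2.52 to -0.28). The groups overlapped, since the highest MGNP gland (176) exceeded the lowest MGN gland (134). For *Jun*, *Junb* and *Jund* the log2 fold changes were 0.45 (-0.30 to 1.21), 0.48 (-0.35 to 1.32) and 0.34 (-0.26 to 0.93), and for *Fos* 0.18 (-0.92 to 1.27). DESeq2 called 401 genes higher and 113 lower over all genes, and edgeR 0, and by both 0 members were called.

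In TNP against TN, 0 of 9 members were called, where limma called 6 of 16638 genes higher (0.0361%) and 1 lower (0.00601%). *Jun* had, with limma, a log2 fold change of 0.54 (95% interval 0.11 to 0.98, adjusted p = 0.669) and *Jund* of 0.53 (0.06 to 1, adjusted p = 0.681), the 2 members with an unadjusted p under 0.05, as had 1210 of the 16638 genes, and the values of both overlapped between the groups. The intervals of *Egr2* (-2.13 to 0.89) and *Egr3* (-1.48 to 3.05) were wide, and reached a several-fold decrease for *Egr2* and a several-fold increase for *Egr3*. The difference between tumor and gland was also compared between *NP* and *N* mice with an interaction term over the 16 samples. Here 0 of 9 members were called and 0 had an unadjusted p under 0.05, and limma called 0 of 19367 genes (0.0%), of which 1536 had an unadjusted p under 0.05. Over all genes, edgeR called 0 and DESeq2 called 50 higher and 269 lower. The log2 difference, *NP* minus *N*, was -0.56 (-1.53 to 0.41) for *Junb*, 0.20 (-1.02 to 1.41) for *Fos* and 0.20 (-0.54 to 0.93) for *Jund*. With edgeR and with DESeq2, 0 members were called in TNP against TN and in the interaction.

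Other genes of the same response were followed with lists. Of the 24 other immediate-early genes, 23 could be tested, and all 23 were called lower in MGN and in MGNP than in MGWT (17.9% and 16.2% of all genes tested), with a median log2 fold change of -3.84 and -3.70. In TN and TNP 21 of the 23 were called lower (25.0% and 28.0% of all genes), with a median of -3.59 and -3.45. *Socs3*, a feedback inhibitor of cytokine receptors, had 24060 to 30710 normalized counts in MGWT and 328.6 to 391.9 in MGN, and its log2 fold change in MGN was -6.20 (standard error 0.12, adjusted p = 1.07e-07). *Nr4a1*, an orphan nuclear receptor, had -6.12 in MGN, *Arc* -5.95 in MGNP, and *Nr4a3* and *Arc* had -8.02 and -7.52 in TN. The median log2 fold change of this list was smaller in size than that of the 10 members in each of the 4 groups, which is given as a description.

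Of the 10 AP-1 partners and related leucine zipper factors, 4 were called lower in MGN and 1 higher, and 4, 5 and 6 were called lower in MGNP, TN and TNP. Over all genes tested, 17.9%, 16.2%, 25.0% and 28.0% were called lower in MGN, MGNP, TN and TNP, and 19.1%, 16.4%, 17.4% and 19.8% higher, and the counts of the lists that follow stand beside these shares. *Atf3*, a stress-induced partner of JUN, had 17130 to 25500 normalized counts in MGWT and 111 to 640 in the glands of *N* and *NP* mice, with log2 fold changes of -6.72 in MGN and -6.36 in MGNP. *Maff* followed with -4.35 and -4.39, and *Batf2* was called higher in MGN (1.31). The 6 genes of SRF and its cofactors had log2 fold changes from -1.66 to 0.02 in MGN. *Srf* itself was called lower in MGN (-1.66, standard error 0.13, adjusted p = 3.04e-05), and 3 of the 6 were called lower in MGN, 3 in MGNP, 4 in TN and 4 in TNP. *Egr4* was at 47.0 to 60.6 normalized counts in MGWT and at the floor of 3 reads elsewhere, at least 14.4-fold lower in MGN and at least 12.8-fold lower in MGNP. Like *Fosl1*, it passed the filter on low counts only through MGWT. *Nab2*, a corepressor of EGR proteins that EGR proteins induce, was called lower in MGN (-1.12) and MGNP (-1.46).

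Of the 12 feedback genes of ERK and JNK signaling, 10 were called lower in MGN, 9 in MGNP, 5 in TN and 6 in TNP, with 1 called higher in TN, *Spry4* (1.11). Whether these counts differ between glands and tumors was not tested. *Dusp1*, a phosphatase of JNK, p38 and ERK, had -3.68 in MGN and -5.91 in TN. Of the 12 textbook AP-1 targets, 6 were called lower and 3 higher in MGN. *Il6* and *Ptgs2* were lowest (-6.72 and -4.68), and the matrix metalloproteinase genes *Mmp9* and *Mmp3* were higher (3.68 and 2.29), so that this list went both ways. The 8 inducible heat-shock genes, which respond to another kind of stress, had 5 called lower and 0 higher in MGN, with *Hspa1a* at 6393 to 12370 normalized counts in MGWT against 98.6 to 314 (-6.01, standard error 0.41, adjusted p = 1.31e-05). They had 3, 5 and 4 called lower in MGNP, TN and TNP, and *Hspe1* was called higher in TN (1.18). The part of heat-shock genes in the members' difference was not tested.

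Between tumors and glands, 4 of 23 other immediate-early genes were called higher and 5 lower in TN against MGN, where 12.8% of all genes were called higher and 22.3% lower. In TNP against MGNP 6 were called higher and 3 lower, where the shares of all genes were 14.7% and 24.0%. Of this list, *Ier3* rose most, from 92.7 to 492 normalized counts in MGN to 4050 to 6398 in TN. Its log2 fold changes were 4.83 (standard error 0.46, adjusted p = 0.000139) and, in TNP against MGNP, 4.81. *Klf4* and *Klf2* fell most (-3.92 and -2.35 in TN). Of the 12 feedback genes, 6 were called higher and 3 lower in TN, and 5 and 3 in TNP. *Dusp6*, the phosphatase of ERK, rose by 3.47 (standard error 0.32, adjusted p = 0.000121) in TN and 3.68 in TNP, and *Spry2*, an inhibitor of receptor tyrosine kinase signaling, by 2.52 and 2.35. *Dusp10* and *Dusp2*, which act more on JNK and p38 or in immune cells, fell (-3.83 and -3.14 in TN). Of 11 AP-1 targets tested, 4 were called higher and 3 lower in each comparison. *Mmp13* and *Ccnd1* rose (3.68 and 2.72 in TN, 3.97 and 2.95 in TNP), and *Mmp3* and *Mmp9* fell (-3.91 and -3.29 in TN). *Nab2* was called higher in TN (1.17) and TNP (1.5), while *Egr1*, *Egr2* and *Egr3* were not called. *Hspa1a* and *Hspa1b* were called higher in TN than in MGN (2.03 and 1.80), and *Hspa1b* in TNP than in MGNP (1.17). In MGNP against MGN and in TNP against TN, 0 genes of these 7 lists were called by limma, and 7 and 8 had an unadjusted p under 0.05, as had 1950 of 18563 and 1210 of 16638 genes over all.

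**Figure D5:**
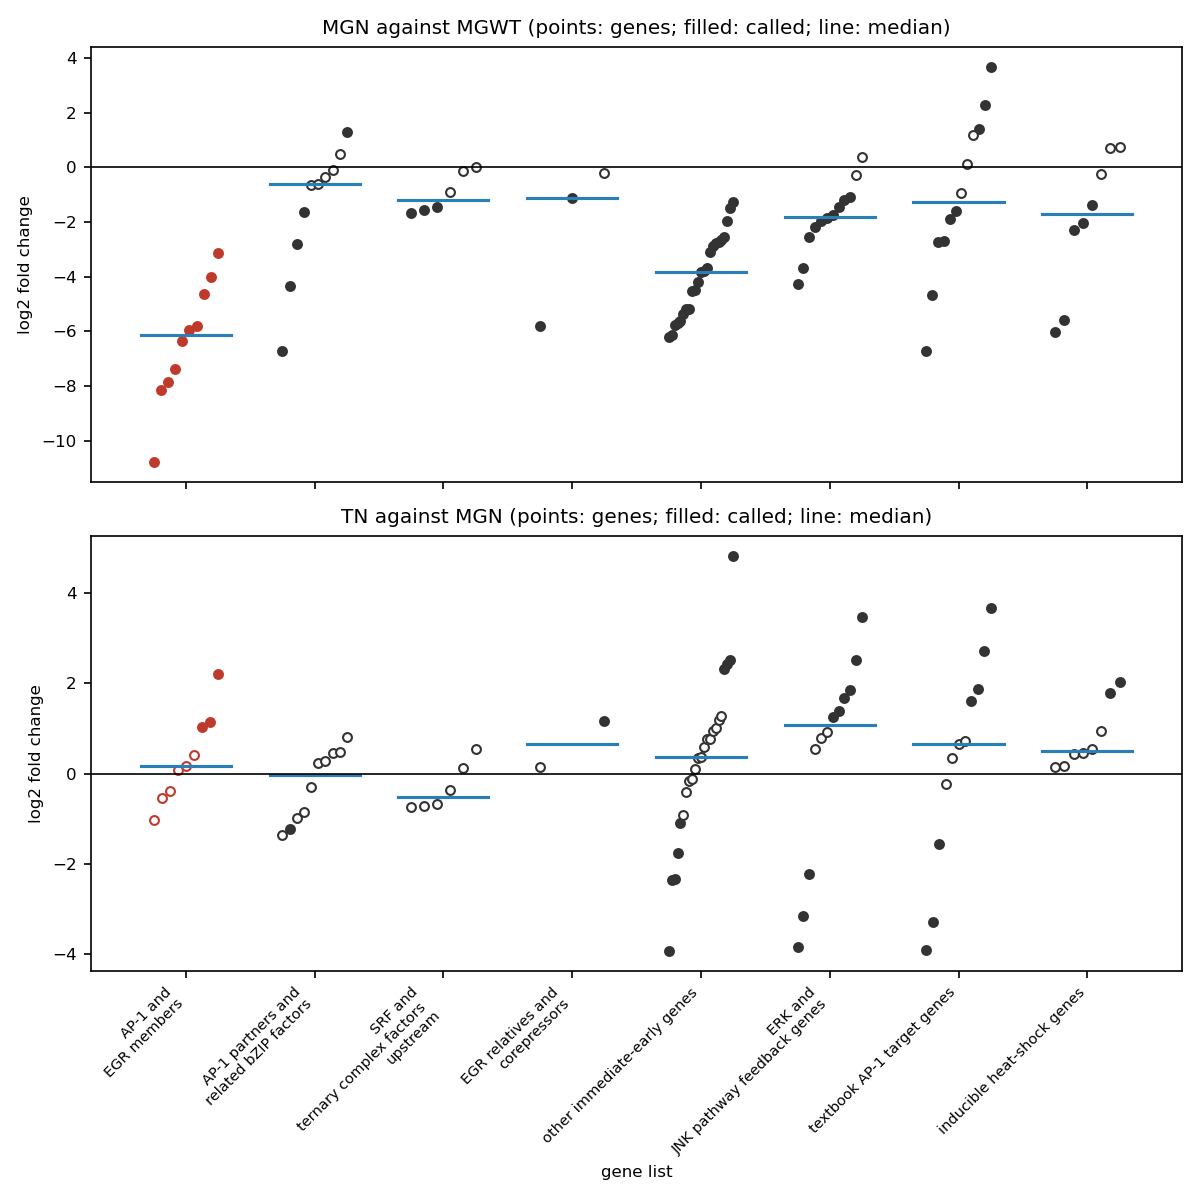
Log2 fold changes of the members and of the 7 lists of related genes, for MGN against MGWT (top) and TN against MGN (bottom), with a point for each gene tested, filled where called, and a line at the list's median. In the top panel the members and the other immediate-early genes lie wholly below 0, with medians of -6.14 and -3.84. In the bottom panel 3 members are called, all higher. The other immediate-early genes, the feedback genes and the AP-1 targets have calls in both directions, and the other lists in a single direction or none.

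Within groups, the members varied together only in part. On deviations from the group mean of log2(normalized count + 1), the 45 pairs of members had a median Pearson correlation of 0.297 over 19 samples (range -0.36 to 0.793), and 39 of 45 were positive. These correlations are a description over libraries that share their group's processing and depth. The highest, 0.793, joined *Fos* and *Jun*. In TN replicate 2, *Fos*, *Junb*, *Jun* and *Egr2* were the highest of their group while *Fosl2*, *Jund* and *Egr3* were the lowest. *Egr1*, *Egr2*, *Egr3*, *Fos*, *Fosb*, *Junb* and *Jund* were highest in MGN replicate 3, a gland without Cre, whereas *Fosl1*, *Fosl2* and *Jun* were highest in MGN replicate 2. MGN replicate 1, the MGN gland with Cre, lay within the range of the other MGN glands for 7 members, and was the lowest for *Junb*, *Egr1* and *Egr2*.

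Of 14831 genes with a mean of at least 50 normalized counts, those whose deviations were most like those of *Fos* were *Tead3* (r = 0.904), *Atf3* (0.885) and *Fstl3* (0.851). The nearest to *Jun* were *Gamt* (0.934), *Cdk5rap1* (0.805) and *Fos* (0.793), and the nearest to *Junb* were *Galk1* (0.891), *Gm9800* (0.875) and *Zswim4* (0.868). *Jund* was nearest to *Rtn4rl1* (0.835), *Col1a1* (0.801) and *Ccdc80* (0.779). For *Fosb* they were *Cdsn* (0.849), *Apold1* (0.804) and *Tmem9* (0.786), for *Fosl1* *Cachd1* (0.745), *Mark1* (0.729) and *Mmp12* (0.716), and for *Fosl2* *Ppp1r13l* (0.896), *Lnx1* (0.844) and *Fiz1* (0.818). *Egr1* was nearest to *Clmn* (0.83), *Cplx2* (0.812) and *Midn* (0.802), *Egr2* to *Fam216a* (0.900), *Armcx4* (0.895) and *Armcx6* (0.890), and *Egr3* to *Nptxr* (0.833), *Spire2* (0.83) and *Ccnjl* (0.816). Over the 16 libraries without MGWT, *Tead3* and *Atf3* again led for *Fos* (0.912 and 0.886), *Gamt* for *Jun* (0.938) and *Galk1*, *Gm9800* and *Zswim4* for *Junb* (0.940, 0.931 and 0.909), while the 3 nearest to *Jund* and to *Egr3* were other genes than over 19 samples. Each list holds the highest of 14831 correlations over few samples, where high values also arise by chance, and none was tested. The deviations of *Fosl1* rest on at most 3 reads in each MGN and MGNP library.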

How the data were processed

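RNA from 19 mouse mammary samples was sequenced as 75-base pairs. The authors aligned reads to GRCm38 with TopHat2 2.1.1 and Bowtie2 and deposited DESeq2-normalized counts, a signal per gene of reads divided by a size factor. The counting tool, its annotation, its use of strand and the handling of the tissue before lysis are not given in the sources used here, and the sources differ on whether a total RNA or an mRNA kit was used. Dividing by the smallest step of each library gave whole reads for 100.0% of values (tolerance 0.05 reads), so depth per sample is known. Of the 46078 identifiers, 98.16% matched GENCODE release 21 for mouse.

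Groups were taken from the labels. Each pair of groups was compared with limma 3.58.1 (R 4.3.3) on log2(normalized count + 1), fitted on the samples of that comparison, over genes that reached 10 normalized counts in a number of samples no lower than the size of the smaller group. The interaction used the 16 samples without MGWT. P-values were two-sided and adjusted by the Benjamini-Hochberg method over all genes tested, and calls needed an adjusted p under 0.05 and a fold change of at least 2. The added count of 1 understates changes of low genes. The 10 members were all named. From each list, genes were named from among the 2 called with the largest rise and the 2 called with the largest fall in a comparison. The members and lists were chosen with earlier results of these data known. Alternatives were other pseudocounts, filters and scaling (TMM), edgeR 4.0.16 and DESeq2 1.42.0 on the recovered reads, 1 fit of all groups, a replicate block, a muscle covariate and leaving out each library. In a further alternative, TNP replicates 1 and 2 were averaged into 1 library. The procedure was tested on simulated data. Exonic lengths for the levels per kilobase came from GENCODE, and promoter windows from RefSeq (GRCm38.p6).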

Additional observations from a re-analysis of the deposited data

Results flagged for a closer look

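In 5 of 40 sets of 4 libraries (10 genes in 4 groups), a library lay farther from the rest than Dixon's 95% critical value allows. Chance gives about 1 in 20 only for values with a normal spread. The rule was applied to normalized counts and not to their log2 values, and all 5 were the highest of their group. *Fos* was at 1200 normalized counts in TN replicate 2, and the next TN tumor was at 652. *Egr1* was at 477 in TNP replicate 4, against 208 in the next. *Egr3* was at 95.7 in TN replicate 4, against 15.9, and at 54.5 in MGN replicate 3, against 19.1. *Fosl1* was at 3.45 in MGN replicate 2, against 1.27, which is a difference of 3 reads or fewer. No explanation was tested for these values.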

How the results depend on the processing

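For 97 results, 1847 values were computed under alternatives, and 1780 kept their direction and their side of the threshold. No called result changed its direction. Of 710 values of members against MGWT, 708 were still called lower, and the exceptions were *Fosl2* (-2.35, adjusted p = 0.0692 with limma) and *Egr3* (-2.37, adjusted p = 0.0527) in MGNP with the muscle score as covariate. That covariate and the groups cannot be told apart. It left 0 members called higher in TNP against MGNP. Leaving out 1 library gave 1 to 3 members called higher in TN against MGN, with 1 left without MGN replicate 1, MGN replicate 4 or TN replicate 3. Scaling by TMM moved the median of all genes by at most 0.1 on the log2 scale. The fit with a replicate block changed no count of members, with 10 lower in each comparison against MGWT and 3 higher in TN against MGN and in TNP against MGNP. Averaging TNP replicates 1 and 2 into 1 library also changed no count of members called. Samples with the same replicate number had a median correlation of deviations of -0.04 (range -0.317 to 0.329), against 0.012 for other pairs (range -0.491 to 0.373). A median over many pairs cannot show whether some samples were paired or shared a batch.

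Some uncalled log2 fold changes changed sign. Not all were near 0 in the main fit, where *Egr3* had 0.79 in TNP against TN and -0.53 in TN against MGN. With 1 library left out, TN against MGN ranged from -0.83 to 0.09 for *Fosb*, -0.08 to 0.26 for *Jun*, -0.19 to 0.67 for *Egr1* and -1.37 to 0.28 for *Egr3*. TNP against MGNP ranged from -0.46 to 0.09 for *Fosb*, -0.07 to 0.40 for *Jun*, -0.20 to 0.29 for *Egr1* and -0.44 to 0.03 for *Egr2*. MGNP against MGN ranged from -0.14 to 0.43 for *Fos*, -0.74 to 0.18 for *Fosb*, -0.33 to 0.15 for *Fosl2* and -0.75 to 0.12 for *Egr1*. TNP against TN ranged from -0.56 to 0.07 for *Fosb*, -0.33 to 0.07 for *Fosl2*, -0.30 to 0.10 for *Junb* and -0.02 to 1.63 for *Egr3*. The interaction for *Fos* ranged from -0.05 to 0.52. In TN against MGN, *Egr1* was -0.04 with edgeR and DESeq2, and *Egr3* 0.25 and 0.27. With the muscle covariate, TNP against MGNP gave *Fosl2* -0.23, *Egr1* -0.13 and *Egr3* -0.30, and MGNP against MGN gave *Fos* -0.11, *Jun* -0.06 and *Egr3* 0.91. Without the 2 MGNP glands with most muscle transcripts, an alternative chosen after seeing the data, TNP against MGNP gave *Egr1* -0.35 and *Egr3* -0.33, and MGNP against MGN gave *Fosb* 0.23, *Fosl2* 0.01, *Egr1* 0.08 and *Egr3* 0.58. The cause of these changes was not tested. Depth limits *Fosl1*, whose MGN and MGNP libraries held at most 3 reads.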
